A study of Mus musculus with 6 samples.

Results

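The constitutive proteasome is the protease complex that takes apart ubiquitin-tagged proteins in every cell. Its genes were taken from the deposited counts as all protein-coding genes whose symbol is Psma, Psmb, Psmc, Psmd or Psme followed by a digit, without the inducible immunoproteasome subunits Psmb8, Psmb9 and Psmb10. This gave 42 of the 45777 genes in the table, and the rule itself uses symbols only, although it was written with earlier results of these data known. The samples were brown adipose tissue of male wild-type C57Bl6/J mice given either PBS (phosphate-buffered saline, the control) or Rb2 by intraperitoneal injection over 2 weeks, with 3 mice in each group. The labels give the compound only as Rb2, taken here to be the ginseng saponin ginsenoside Rb2, and the sources used here state neither its dose nor the age of the mice. All mice, controls included, were wild type and injected. The RNA of each mouse was made into 1 library with a stranded mRNA kit, and libraries are named by group and by the number in the table's column, PBS 1, 2 and 4 and Rb2 1, 3 and 4.

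The proteasome consists of a barrel, the core particle, and of regulatory particles that dock on its ends. The barrel is built of rings of alpha subunits (Psma), which form the gate, around rings of beta subunits (Psmb), of which Psmb5, Psmb6 and Psmb7 carry the proteolytic sites. The regulatory particle has a base with a ring of ATPases (Psmc) that unfold the substrate, and a lid (most Psmd genes) that removes ubiquitin. Nfe2l1 is a transcription factor held at the endoplasmic reticulum that raises proteasome genes when proteasome activity falls short, and in brown fat it is known for its part in proteasome supply during cold exposure.

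Of the 42 genes, 31 encode subunits of the core (14) or of the regulatory particle (17) that are found in most tissues. Another 2 encode tissue-restricted core subunits, Psma8 of the testis and Psmb11 of the thymus. The rest are the base chaperones Psmd5, Psmd9 and Psmd10, the activators Psme1, Psme2, Psme3 and Psme4, the Psme2 copy Psme2b, and Psmc3ip, a meiotic recombination protein that is no proteasome subunit. The expression filter passed 40 of the 42. Psmb11 had a count of 0 in all 6 libraries and Psma8 had between 0 and 12 counts, so neither was tested, and a count of 0 allows up to 3 counts.

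Promoter sequences are shown for 3 genes on which the results turn: Psmb5, a catalytic subunit, Psmd4, the 1 gene that passed the test, and Psmc6, the ATPase that lay on the opposite side of 0 from its ring partners. Each is the 250 bases before the transcript start (RefSeq, GRCm38.p6, the assembly behind mm10), 5′ to 3′ on the gene's strand, and capitals mark matches on either strand of TGACNNNGC, the core of the antioxidant response element that Nfe2l1 and Nfe2l2 bind with a small Maf partner, or of CCAAT, the box bound by NF-Y. Psmb5 lies on the minus strand (chr14:54617996-54618245), Psmc6 on the plus strand (chr14:45329574-45329823) and Psmd4 on the minus strand (chr3:95042615-95042864).
Psmb5: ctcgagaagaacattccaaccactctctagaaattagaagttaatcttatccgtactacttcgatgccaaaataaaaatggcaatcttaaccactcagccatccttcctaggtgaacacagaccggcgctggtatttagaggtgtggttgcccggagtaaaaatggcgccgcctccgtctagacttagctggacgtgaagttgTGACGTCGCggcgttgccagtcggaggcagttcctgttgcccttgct
Psmc6: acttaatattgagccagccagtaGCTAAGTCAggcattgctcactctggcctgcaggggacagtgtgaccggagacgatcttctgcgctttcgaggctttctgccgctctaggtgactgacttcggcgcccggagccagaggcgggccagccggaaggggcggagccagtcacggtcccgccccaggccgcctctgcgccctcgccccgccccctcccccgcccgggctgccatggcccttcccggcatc
Psmd4: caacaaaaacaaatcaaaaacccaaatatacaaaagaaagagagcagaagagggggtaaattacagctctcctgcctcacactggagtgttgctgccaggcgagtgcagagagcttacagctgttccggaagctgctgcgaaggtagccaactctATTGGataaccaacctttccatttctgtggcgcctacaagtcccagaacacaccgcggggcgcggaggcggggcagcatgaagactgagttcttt
With the transcript start as position 1 and no position 0, the Psmb5 match is TGACGTCGC at -47 to -39. The Psmc6 match lies on the opposite strand at -227 to -219, and the Psmd4 capitals are CCAAT on the opposite strand at -95 to -91.

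RefSeq promoter entries (250 bases before to 50 after the start) were matched for 35 of the 42 genes, with 38 windows. Psma8, Psmb1, Psmb2, Psmb7, Psmc3, Psmd3 and Psmd7 had no entry. TGACNNNGC was found in 6 of the 38 windows (15.8%), those of Psmb5, Psmb6, Psmc6, Psmd12, Psmd9 and Psme4, against 12.4% of all 32851 windows of the same length. CCAAT was found in 14 of the 38 windows (36.8%), against 37.4% of all windows, and no window of these genes held both motifs. A match is only a string of letters, and both shares lay close to those of promoters at large.

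Total counts ran from 83642183 to 92666780 per library, and the Pearson r of log2 CPM (counts per 1000000, here with TMM scaling) between libraries ran from 0.920 to 0.979. All 10 brown adipocyte markers (Ucp1 and others) passed the filter, with summed levels of 12805 to 16946 CPM, and 1 of them, Elovl3, was called lower. Skeletal muscle markers summed to 14.1 to 7327 CPM in PBS and to 6.75 to 456 CPM in Rb2, endothelial markers to 1308 to 1442 and 710 to 1058 CPM, macrophage markers to 67.3 to 85.9 and 50.5 to 71.2 CPM, fibroblast markers to 578 to 740 and 417 to 575 CPM, and erythroid markers to 1036 to 1451 and 479 to 793 CPM. No listed marker was at 0 in all libraries. Among markers, 4 of 5 erythroid, 3 of 7 endothelial and 1 of 6 macrophage genes were called lower, beside 5.11% of all tested genes. The erythroid, endothelial and fibroblast sums did not overlap between groups. The fibroblast sums came close, with 578 CPM in PBS 4 and 575 CPM in Rb2 4. The proteasome is present in all of these cells, and in whole tissue fewer cells of a type cannot be told apart from less RNA per cell. With the muscle markers as covariate, the median log2 fold change was -0.11 over the core and -0.07 over the regulatory particle. Without the covariate these were -0.16 and -0.14. Psmd4 was not called in that fit (edgeR adjusted p = 0.0901). The part of the other cell types in proteasome levels was not tested. GC-rich genes lay higher in PBS 2 and PBS 4 and lower in the Rb2 libraries. The Spearman rho across genes between GC content and a gene's deviation from its own mean was -0.00606, 0.35 and 0.40 in PBS 1, 2 and 4, against -0.30, -0.25 and -0.13 in Rb2 1, 3 and 4.

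Subunit transcripts were moderately abundant and unequal, although the assembled complex holds the core subunits in equal number. Levels between genes are compared per length, as TMM-normalised CPM per kilobase of the transcript. In PBS the 7 beta ring genes had a median of 116 CPM per kilobase (67.8 to 150.5), and the 7 alpha ring genes one of 76.5 (32.9 to 115). Psmb3, a structural beta subunit, was highest at 150.5 ± 11.55 CPM per kilobase (SD, n = 3), followed by Psmb6 at 141 ± 4.48 and Psmb5 at 124 ± 9.13. The difference between Psmb3 and Psmb6 was within these SDs. Psma5 (32.9 ± 1.07) and Psma2 (34.0 ± 1.25) were the lowest of the core and lay within about 1 SD of each other.

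The regulatory particle was lower per length. The 6 ATPase genes had a median of 51.8 CPM per kilobase in PBS and the 8 lid genes one of 31.2. Psmd8 of the lid (91.8 ± 8.24) and Psmd4, the ubiquitin receptor of the base (88.9 ± 6.03), stood above the other members of their groups. Psmd11 of the lid was the lowest subunit at 17.7 ± 0.91. The base chaperones lay at 3.81 to 8.69 CPM per kilobase, below every subunit. Over the 31 subunits the range was 8.52-fold in PBS, and the order of levels in Rb2 was nearly that in PBS (Spearman rho 0.960 over 31 genes, a description, since both groups share gene length and base composition). These levels rest on 1 transcript length per gene. Psma2 and Psma3 have long reference transcripts (2911 and 2846 bases), and a shorter form in use would raise their values.

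**Figure D1:**
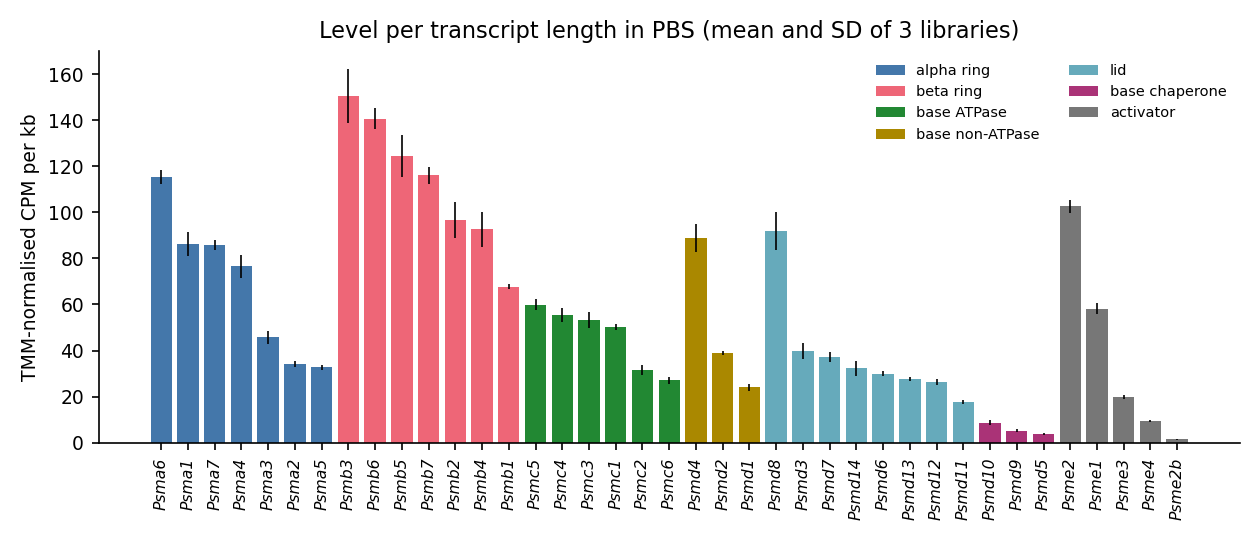
Level of 39 tested proteasome genes (all but Psmc3ip) in PBS, as TMM-normalised CPM per kilobase on the vertical axis. Bars are means of 3 libraries with SD, coloured by role, and the beta ring genes reach from 67.8 to 150.5 while the base chaperones stay between 3.81 and 8.69.

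Rb2 against PBS asks which transcripts differed in brown fat after the 2 weeks of treatment. Of the 40 tested proteasome genes 1 was called, Psmd4, which was lower after Rb2, and none was called higher (edgeR's quasi-likelihood test with adjusted p-values below 0.05). That is 2.50% of the members, where 10.4% of all 16707 tested genes were called, 5.33% higher and 5.11% lower. At an unadjusted p below 0.05 there were 9 members (22.5%, 2 higher and 7 lower), against 30.0% of all tested genes. The groups did not overlap in 14 members (35.0%), 12 of them lower and 2 higher after Rb2, while over all tested genes the groups were separated in 35.8%, with 17.6% lower and 18.2% higher.

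The measured differences were small. Fitted log2 fold changes of the 40 genes ran from -0.53 (Psmd4) to 0.33 (Psme4) with a median of -0.09, where the median over all tested genes was -0.01. The 95% interval of the fold change lay inside 1.5-fold in either direction for 28 of the 40 genes (70.0%) and inside 2-fold for 39, the exception being the sparse Psme2b. Over all tested genes these shares were 27.1% and 59.0%, and over the 2210 genes with a mean level in the range of the 31 subunits (37.8 to 143 CPM) 48.8% and 85.1%. The median SD between libraries of a group was 0.14 in log2 CPM for the 31 subunits, against 0.17 for those 2210 genes.

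**Figure D2:**
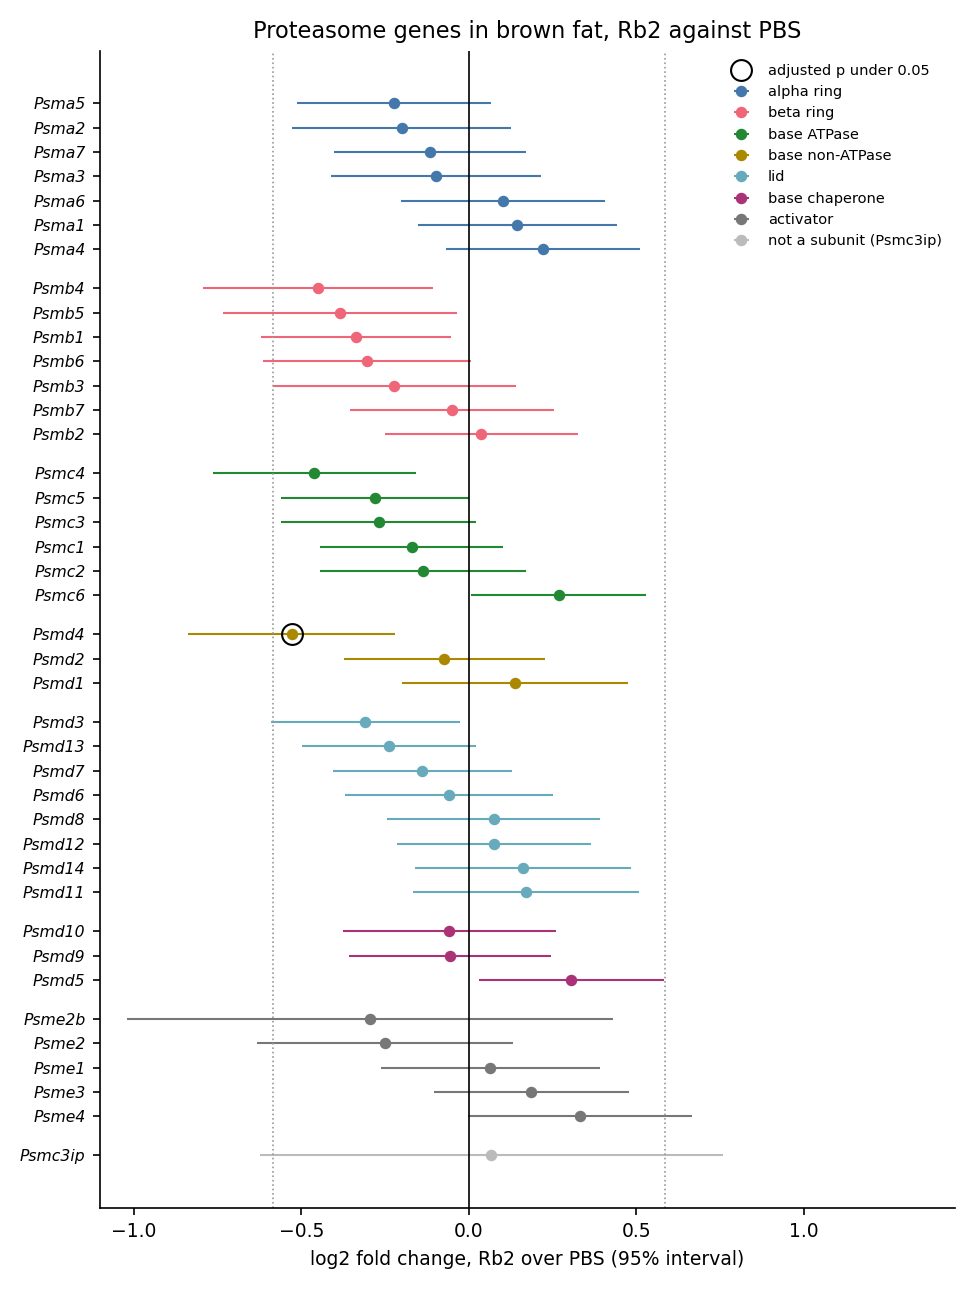
Log2 fold change of the 40 tested genes, Rb2 over PBS, on the horizontal axis with 95% intervals, grouped by role. The dotted lines mark a 1.5-fold difference, and Psmd4 at -0.53 is the 1 gene past the threshold (ring).

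Psmd4 carries the ubiquitin-interacting motifs with which the base catches tagged substrates (gene 19185; chromosome 3, 95032688 to 95042614). Its level was 114.9, 128 and 113 CPM in PBS 1, 2 and 4 and 73.1, 93.1 and 80.0 CPM in Rb2 1, 3 and 4. All Rb2 libraries lay below all PBS libraries, with Rb2 3 closest. It fell by 0.53 on the log2 scale (SE 0.14, edgeR adjusted p = 0.0411), a 0.693-fold level with a 95% interval of 0.559 to 0.859. The call was lost whichever library was left out, with adjusted p of 0.104, 0.167 and 0.0601 without PBS 1, 2 and 4, and of 0.104, 0.0608 and 0.0632 without Rb2 1, 3 and 4. It was also lost in a fit with offsets for transcript GC content and length (-0.27, adjusted p = 0.191), called the GC-adjusted fit here. Such offsets also take out a group difference that follows GC content or length. The Psmd4 transcript has a GC content of 54.9%.

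The other base subunits without ATPase activity did not pass. Psmd2, a scaffold that binds shuttling ubiquitin receptors, was at 117 ± 2.63 CPM in PBS and 111 ± 13.3 in Rb2 (log2 fold change -0.07, adjusted p = 0.745). Psmd1, the other large scaffold, was at 74.7 ± 4.69 and 82.3 ± 14.2 CPM (0.14, adjusted p = 0.567), and its gene overlaps Htr2b by 18686 bases. Rb2 4 had the lowest value of both genes and Rb2 3 the highest.

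The catalytic subunits had lower means after Rb2 and none was called. Psmb5, the chymotrypsin-like site, was at 103, 119 and 114 CPM in PBS 1, 2 and 4 and at 68.4, 93.6 and 95 CPM in Rb2 1, 3 and 4. The groups did not overlap, and Rb2 1 lay furthest down (log2 fold change -0.38 ± 0.16 SE, adjusted p = 0.135). Psmb6, the caspase-like site, was at 112, 116 and 109 CPM against 76.7, 98.0 and 98.0 CPM, again without overlap and with Rb2 1 lowest (-0.30 ± 0.14 SE, adjusted p = 0.174). Psmb7, the trypsin-like site, was at 131, 134 and 139 CPM against 118, 148.5 and 123 CPM, where Rb2 3 was above every PBS library (-0.05 ± 0.14 SE, adjusted p = 0.832). The 95% intervals allow levels between 0.601- and 0.976-fold for Psmb5, 0.653- and 1.005-fold for Psmb6 and 0.781- and 1.19-fold for Psmb7. In the GC-adjusted fit Psmb5 was at -0.02, Psmb6 at 0.05 and Psmb7 at 0.03, where the median over all tested genes was 0.06.

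Of the noncatalytic beta subunits Psmb4 had the largest difference, with 99.3, 116 and 114 CPM in PBS and 65.3, 85.1 and 90.25 CPM in Rb2 (-0.45 ± 0.15 SE, adjusted p = 0.0864). The groups did not overlap in Psmb4 or in Psmb1 (-0.34, adjusted p = 0.112), and Rb2 1 was the lowest library in both. Psmb3 (-0.22) and Psmb2 (0.04) overlapped between groups. The 7 alpha genes ran from -0.22 (Psma5) to 0.22 (Psma4) with adjusted p from 0.273 to 0.667. In this ring the groups did not overlap in Psma5, at 41.0, 39.3 and 41.9 CPM in PBS and 29.9, 38.9 and 35.9 CPM in Rb2, and overlapped in the other 6.

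**Figure D3:**
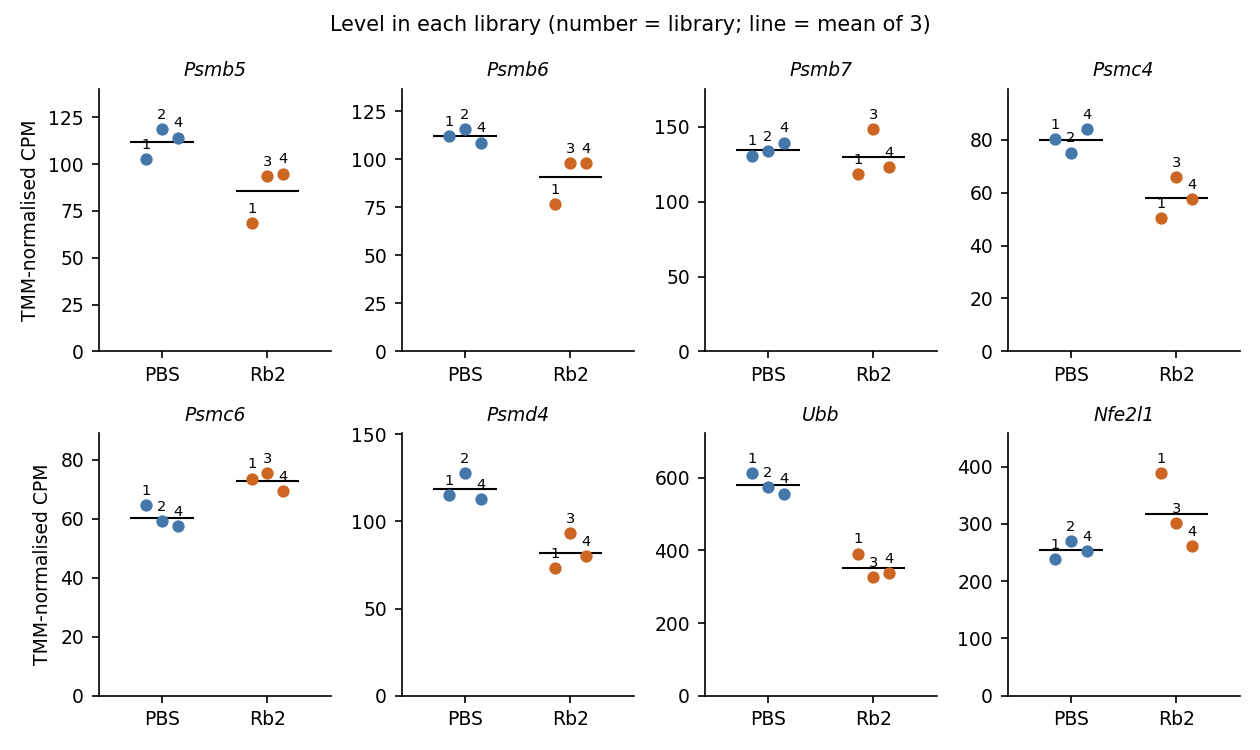
TMM-normalised CPM of 8 genes in each library on the vertical axis, with the library number beside each point and the mean of 3 as a line. Psmd4 and Ubb are lower in every Rb2 library and past the threshold, Psmc6 is higher in every Rb2 library and not past it, and Nfe2l1 overlaps between groups with Rb2 1 highest at 388.

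Among the ATPases, which form 1 ring, 5 of 6 had lower means after Rb2 and none was called. Psmc4 was at 80.3, 75.1 and 84.0 CPM in PBS and at 50.4, 65.9 and 57.6 CPM in Rb2, without overlap (-0.46 ± 0.14 SE, adjusted p = 0.0577). It was called lower in 3 of 17 alternative fits. These were library size alone as scaling (adjusted p = 0.0494), a count minimum of 50 (adjusted p = 0.0419) and the DESeq2 Wald test (adjusted p = 0.0134). With any 1 library left out its adjusted p was 0.0735 to 0.146, and the GC-adjusted fit gave -0.27 (adjusted p = 0.214). Psmc5 (-0.28), Psmc3 (-0.27) and Psmc1 (-0.17) were also separated between groups, with adjusted p from 0.166 to 0.370. Psmc6 went the other way, from 64.6, 59.2 and 57.6 CPM in PBS to 73.6, 75.5 and 69.4 CPM in Rb2 (0.27 ± 0.12 SE, adjusted p = 0.156). Its transcript has the lowest GC content of the 31 (37.0%), and in the GC-adjusted fit its log2 fold change was -0.05.

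The lid had no member past the threshold. Psmd3 was at 76.9, 89.5 and 90.4 CPM in PBS and 69.1, 73.3 and 65.0 CPM in Rb2 (-0.31, adjusted p = 0.136), and Psmd13 at 53.5, 57.0 and 54.0 against 42.6, 49.7 and 47.2 CPM (-0.24, adjusted p = 0.200). The groups did not overlap in these structural lid genes. Psmd14, the lid enzyme that cuts ubiquitin off the substrate, overlapped between groups (49.7 ± 4.99 and 55.6 ± 8.24 CPM, log2 fold change 0.16, adjusted p = 0.479). Psmd6, Psmd7, Psmd8, Psmd11 and Psmd12 lay between -0.14 and 0.17 and overlapped as well.

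Outside the core and the regulatory particle, Psmd5, a chaperone of base assembly, was at 18.5, 16.4 and 15.3 CPM in PBS and at 21.3, 20.1 and 20.7 CPM in Rb2. The groups did not overlap, and the difference did not pass (0.31 ± 0.12 SE, adjusted p = 0.134). Psmd9 (-0.06) and Psmd10 (-0.06), the other chaperones of the base, overlapped. Psme4, a nuclear activator that caps the core in place of the regulatory particle, was at 60.6, 63.3 and 57.5 CPM in PBS and 86.9, 80.4 and 61.1 CPM in Rb2 (0.33 ± 0.15 SE, adjusted p = 0.169). Rb2 4 lay within the PBS range, and without that library Psme4 was called higher (0.46, adjusted p = 0.0431). The Psme4 gene overlaps Erlec1 by 18357 bases. Psme3, another nuclear activator (0.19), and the interferon-inducible pair Psme1 (0.06) and Psme2 (-0.25) did not pass. Psme2b (1.23 ± 0.22 and 0.998 ± 0.376 CPM) is a near-copy of Psme2, so reads may be shared between them, and Psmc3ip stayed near 1 CPM (0.923 ± 0.0516 and 0.966 ± 0.302).

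The core and the regulatory particle were set against each other. The median log2 fold change was -0.16 over the 14 core genes and -0.14 over the 17 regulatory genes, a difference of -0.02, beside -0.01 over all tested genes. Summed core transcripts were 1428, 1443 and 1470 CPM in PBS and 1154, 1467 and 1362 CPM in Rb2, and summed regulatory transcripts 1279.5, 1284 and 1282 CPM in PBS and 1147, 1315 and 1094 CPM in Rb2. The PBS libraries were close together in both sums, and the Rb2 libraries spread more widely, with Rb2 3 inside or above the PBS range. The core-to-regulatory ratio was 1.12, 1.12 and 1.15 in PBS and 1.01, 1.12 and 1.24 in Rb2. Rb2 1 thus had the lowest and Rb2 4 the highest ratio of all 6, and the means (1.13 ± 0.02 and 1.12 ± 0.12) differed by less than the spread between Rb2 libraries.

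Within the core the rings were compared. Summed alpha transcripts were 675, 646 and 663 CPM in PBS and 586, 739.7 and 662 CPM in Rb2, while summed beta transcripts were 754, 797 and 807 CPM in PBS and 569, 727 and 699.6 CPM in Rb2. The beta sum did not overlap between groups and the alpha sum did. The beta-to-alpha ratio was 1.12, 1.23 and 1.22 in PBS and 0.971, 0.983 and 1.06 in Rb2, with every Rb2 library below every PBS library. This ratio was chosen after its values were seen and was not tested. The medians of the log2 fold changes were -0.30 for the beta and -0.10 for the alpha ring. In the GC-adjusted fit they were 0.03 and 0.08, beside 0.06 over all tested genes. Median transcript GC content was 52.2% for the beta and 45.0% for the alpha genes, and its part in the ratio was not tested.

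**Figure D4:**
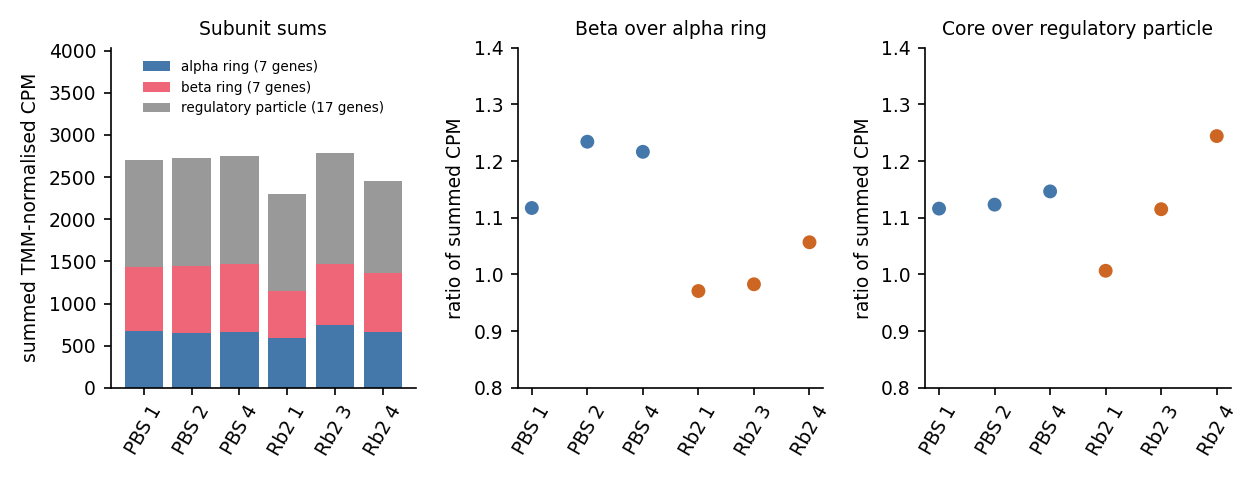
Left, stacked sums of TMM-normalised CPM per library for the alpha ring, the beta ring and the regulatory particle. Middle and right, the ratio of the beta to the alpha sum and of the core to the regulatory sum (axes from 0.8), where the beta-to-alpha ratio is 1.12 to 1.23 in PBS and 0.971 to 1.06 in Rb2 and the core-to-regulatory ratio overlaps.

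GC content moved with the fold change. Over the 31 subunits the Spearman rho between transcript GC content and log2 fold change was -0.67, where it was -0.34 over the 15788 tested genes that have both values (descriptions, since genes share libraries). The 16 subunits at or above their median GC content had a median log2 fold change of -0.25, with 14 below 0, and the 15 subunits under it a median of 0.08, with 7 below 0. In the GC-adjusted fit the rho over the 31 was 0.07, the median -0.04 (0.06 over all tested genes) and no member was called. The offsets remove each library's GC trend over all genes, so a rho near 0 was largely set in advance. That trend differed by group, so a difference after Rb2 that follows GC content would be removed with it. The lowest values in this fit were those of Psma2 (-0.47, adjusted p = 0.0862) and Psmb1 (-0.42, adjusted p = 0.0586), both with transcripts under 45% GC.

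**Figure D5:**
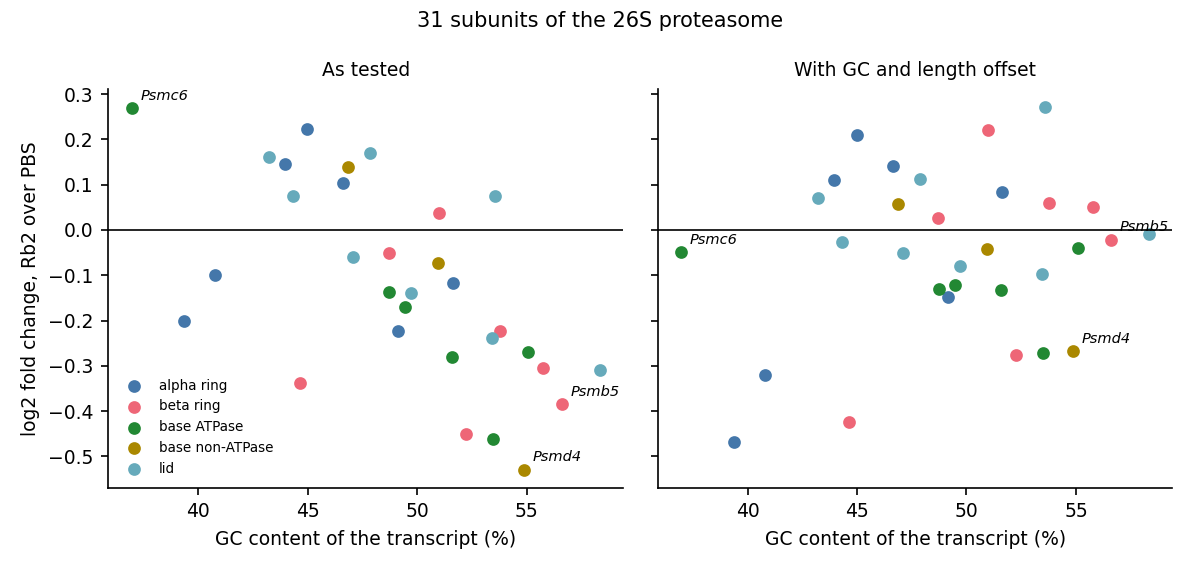
Log2 fold change, Rb2 over PBS, against transcript GC content in percent for the 31 subunits, coloured by role. As tested (left) the points descend from Psmc6 to Psmd4 with a Spearman rho of -0.67. In the GC-adjusted fit (right), which removes the GC trend by construction, the rho is 0.07.

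Rb2 1 stood apart among the libraries, mainly in the core. It was the lowest of the 6 for 18 of the 31 subunits, among them 6 of the 7 beta and 5 of the 7 alpha genes, and the highest for none. Rb2 3 was the highest for 13 and the lowest for none. Rb2 4 was the lowest for 8 and the highest for none, and its regulatory sum (1094 CPM) lay below that of Rb2 1 (1147 CPM). Without Rb2 1 the median over the core was -0.05 and over the regulatory particle -0.08. The beta-to-alpha ratio of the remaining Rb2 libraries had a mean of 1.02, against 1.19 ± 0.06 in PBS.

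Nfe2l1 did not differ beyond the spread between libraries (gene 18023; chromosome 11, 96817414 to 96829968). It was at 239, 270 and 252 CPM in PBS 1, 2 and 4 and at 388, 301 and 261 CPM in Rb2 1, 3 and 4. Rb2 4 lay within the PBS range, and Rb2 1 was highest (0.32 ± 0.17 SE, adjusted p = 0.235). Summed over the 31 subunits, Rb2 1 had the lowest level of the 6 libraries (2301 CPM). Rb2 3, second in Nfe2l1, had the highest sum (2782 CPM), and Rb2 4 was at 2456 CPM. For Nfe2l1 the log2 fold change without Rb2 1 was 0.15 (adjusted p = 0.536), and the GC-adjusted fit gave 0.49 (adjusted p = 0.0870). Its relative Nfe2l2, the regulator of antioxidant genes, was at 48.0, 41.7 and 45.7 CPM in PBS and 54.4, 53.3 and 52.6 CPM in Rb2, without overlap (0.24 ± 0.11 SE, adjusted p = 0.181). Nfe2l3 was below 2 CPM in every library.

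Of 21 tested genes, namely Nfe2l1, Nfe2l2, Nfe2l3 and genes that process, degrade or partner them, 2 fell and none rose (median log2 fold change 0.06), a share of calls near the 10.4% of all tested genes. Both were small Maf proteins, the dimer partners of Nfe2l1 and Nfe2l2. Mafk was at 23.7, 26.04 and 21.6 CPM in PBS and 11.8, 9.59 and 12.2 CPM in Rb2, with no overlap (-1.09 ± 0.14 SE, adjusted p = 0.00537), and it stayed past the threshold whichever 1 library was left out. Maff was at 9.26, 15.2 and 6.48 against 3.09, 2.82 and 2.23 CPM (-1.93 ± 0.31 SE, adjusted p = 0.0120), with adjusted p = 0.0537 without Rb2 1 and 0.05004 without Rb2 3. The third, Mafg, was at 23.2 and 21.6 CPM on average (-0.11, adjusted p = 0.617). With the next smallest p-values, Ogt (0.49, adjusted p = 0.0583), which puts sugar on nuclear proteins, and Ubxn4 (0.43, adjusted p = 0.0931), a Vcp adaptor of the endoplasmic reticulum, did not pass. The Nfe2l1 protease gene Ddi2 (0.59, adjusted p = 0.148), the deglycosylase gene Ngly1 (0.39, adjusted p = 0.145) and Vcp (0.06, adjusted p = 0.784) did not pass either.

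Among genes of ubiquitin supply and conjugation, Ubb and Cdc34 fell after Rb2. Ubb, which encodes ubiquitin, was at 612, 574 and 557 CPM in PBS and 391, 326 and 337 CPM in Rb2. The groups did not overlap (-0.73 ± 0.14 SE, adjusted p = 0.0173). Cdc34, a ubiquitin-conjugating enzyme, went from 98.5 ± 13.2 to 60.9 ± 8.61 CPM (-0.69 ± 0.15 SE, adjusted p = 0.0251). Uchl3, a ubiquitin hydrolase (0.45, adjusted p = 0.0582), and Rps27a, a ribosomal protein gene that also encodes ubiquitin (-0.35, adjusted p = 0.230), did not pass. Without PBS 1, PBS 2 or Rb2 3 the adjusted p of Ubb was 0.0723, 0.0723 and 0.0663. Those of Cdc34 were 0.0708, 0.112 and 0.0669, and 0.0723 without Rb2 1. In the GC-adjusted fit Ubb (-0.50, adjusted p = 0.0835) and Cdc34 (-0.18, adjusted p = 0.326) did not pass.

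Of 22 tested assembly and accessory factors 1 rose and none fell (median log2 fold change 0.06), where 10.4% of all tested genes were called. Ublcp1, a phosphatase that acts on the proteasome, was at 13.3, 12.03 and 14.2 CPM in PBS and 21.3, 21.4 and 16.4 CPM in Rb2 (0.58 ± 0.15 SE, adjusted p = 0.0370). Its adjusted p was 0.107, 0.146 and 0.0580 without PBS 1, 2 and 4 and 0.108 and 0.118 without Rb2 1 and 3. The GC-adjusted fit gave 0.43 (adjusted p = 0.0971), and library size alone 0.49 (adjusted p = 0.0620). Usp14, the ubiquitin protease bound to the base (0.43, adjusted p = 0.0656), Ecpas, a scaffold of the assembled complex (0.42, adjusted p = 0.0810), and Pomp, the chaperone of beta ring assembly (-0.40, adjusted p = 0.118), did not pass.

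The immunoproteasome genes, which replace the catalytic subunits after interferon, were among the genes called lower. Psmb8, Psmb9 and Psmb10 fell by 0.82, 0.73 and 0.64 on the log2 scale (adjusted p = 0.0390, 0.0445 and 0.0465). Of the 10 tested genes of the immunoproteasome and antigen processing these 3 fell and none rose (median log2 fold change -0.35), where 5.11% of all tested genes were called lower. Each call was lost without PBS 1, PBS 2, Rb2 1 or Rb2 3, with adjusted p of 0.106 to 0.138 for Psmb8, 0.131 to 0.146 for Psmb9 and 0.0916 to 0.164 for Psmb10, and that of Psmb10 also without PBS 4 (adjusted p = 0.0718). The GC-adjusted fit ended the calls of Psmb8 (-0.58, adjusted p = 0.0636), Psmb9 (-0.47, adjusted p = 0.100) and Psmb10 (-0.34, adjusted p = 0.116), and library size alone those of Psmb9 (adjusted p = 0.0543) and Psmb10 (adjusted p = 0.0632). With the muscle covariate Psmb9 (adjusted p = 0.0914) and Psmb10 (adjusted p = 0.0855) were not called, and Psmb8 was (adjusted p = 0.0411). In limma-voom Psmb9 had an adjusted p of 0.0503. Without both PBS libraries richest in muscle transcripts, the log2 fold changes were -0.47, -0.43 and -0.59. Of the 17 alternative fits, Psmb8 was called in 10, Psmb9 in 7 and Psmb10 in 7. The macrophage markers, which overlapped between groups (67.3 to 85.9 and 50.5 to 71.2 CPM), had a lower mean sum in Rb2. The endothelial (1308 to 1442 and 710 to 1058 CPM), erythroid and fibroblast sums were lower in Rb2 without overlap. The part of any of these cells in the immunoproteasome values was not tested. Per length, Psmb8 made up 11.7%, 10.99% and 8.13% of the sum of Psmb8 and Psmb5 in PBS 1, 2 and 4, against 7.36%, 7.34% and 8.6% in Rb2 1, 3 and 4, so the groups overlapped. Psmb9 made up 6.05%, 5.53% and 4.56% of the sum with Psmb6 in PBS, against 3.99%, 3.53% and 4.68% in Rb2, which overlapped as well. Psmb10 made up 11.7%, 14.4% and 11.96% of the sum with Psmb7 in PBS, against 7.71%, 7.89% and 10.9% in Rb2, without overlap.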

How the data were processed

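Brown fat RNA of 3 PBS and 3 Rb2 mice was compared. The authors deposited raw read counts of 45777 genes, untouched by normalisation, and these counts were the input here. The submitters' processing notes name mm10 as the genome and list Trimmomatic, HISAT2, Bowtie2 and StringTie. What each did, how reads were counted and with which strand setting is not stated in the sources used here, so overlapping genes may share counts. Column numbers of the table and replicate numbers of the titles differ, and columns were therefore assigned to groups only. The p-values weigh the group difference against the spread between these mice, which the test moderates across genes.

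Counts were tested with edgeR 4.0.16 (R 4.3.3, robust quasi-likelihood F test) after TMM normalisation and the expression filter with a count minimum of 10. P-values were adjusted over all 16707 tested genes (Benjamini-Hochberg), and a gene was called below 0.05. Standard errors are fold change over the root of F on the log2 scale, and 95% intervals use the degrees of freedom of the test. Length and GC content are those of the longest GENCODE M21 transcript tied to the gene's RefSeq accessions, or else to its symbol, and 94.5% of tested genes had both. Alternatives were other scalings, limma-voom 3.58.1, DESeq2 1.42.0, other filters, libraries left out, a block, a muscle covariate, and offsets for GC content and length (splines with 5 degrees of freedom). Scripts were tested on simulated data.

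Members and lists were chosen with earlier results of these data known. Values per library were to be given for the catalytic subunits, members past the threshold, the 3 highest and 3 lowest fold changes, Nfe2l1 and Nfe2l2, with up to 4 genes by smallest p from each list. Other genes with values were picked by role or by separation of the groups, after their values were seen. Floors cover counting error only. Part of the ubiquitin list is not reported here, so no counts are given for that list.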

Additional observations from a re-analysis of the deposited data

How the results depend on the processing

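The number of proteasome genes called lower was 1. It was 2 with library size alone, 2 with a count minimum of 50 (Psmc4 was added in both) and 4 in the DESeq2 Wald test (Psmb1, Psmb4, Psmc4 and Psmd4), and of Nfe2l2 and the 9 members that the rule for values per library takes, 2, 2 and 3 were called in these. It was 0 without both PBS libraries richest in muscle transcripts, 0 with the muscle covariate, 0 with the GC and length offsets, and 0 with any 1 library left out. The number called higher, 0 at first, then ranged from 0 to 1, and the number called among Nfe2l2 and these members from 0 to 1. With the column numbers 1 and 4 as a replicate block, 0 members and 96 genes in all were called, against 1743. In that fit PBS 2 and Rb2 3 had no partner and added nothing to the group difference. It thus compared fewer libraries than the main fit, and the 2 counts do not measure an effect of pairing. Deviations from the group means in libraries of one number correlated by r = -0.20 and -0.22. These values show no shared shift, but they rest on few libraries, and whether the libraries were paired is not known. Over all genes, 303 (without PBS 2) to 2269 (without Rb2 4) were called with 1 library left out, and 334, 548 and 601 without PBS 1, Rb2 1 and Rb2 3. DESeq2 called 3295 and the muscle covariate left 915. Without both PBS libraries edgeR called 0 (2063 at an unadjusted p below 0.05), where the lone PBS library is assumed to vary like the others. The share of higher calls, 51.1%, was 38.7% with library size alone and 60.8% with the offsets.

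The offsets turned the core median to 0.0388, Psmb6 to 0.0513, Psmb7 to 0.0263 and Psmc6 to -0.0494, and moved the core minus regulatory difference to 0.0882. They also moved the median over all tested genes from -0.0130 to 0.0559. The core median, Psmb6 and Psmb7 lay below that median, so their positive signs are no sign of higher levels after Rb2. With 1 library left out Psmb7 ranged from -0.156 to 0.0154, the latter without Rb2 1. The cause was not tested. The regulatory median stayed within 1 SD between libraries (0.10) in all 17 alternatives. At these depths Psma8 and Psmb11 were too sparse to test, and Psme2b and Psmc3ip were tested at low levels (1.23 and 0.923 CPM in PBS). Counting error and spread between libraries were not separated for any member.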
